A study of Homo sapiens with 2 samples.

Results

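The genes described here are 36 genes of cholesterol synthesis and of the SREBP program, chosen by gene name from the 50868 genes of the expression table. They were told apart by role into 7 genes of the mevalonate arm, 11 genes of the squalene and sterol arm, 5 SREBP regulators, 7 genes of fatty acid synthesis, 2 genes of sterol uptake and transport, and 4 genes of efflux with its LXR receptors. The libraries were made from MOLM-13, a human acute myeloid leukemia (AML) cell line with a KMT2A::MLLT3 fusion, grown in RPMI-1640 with fetal bovine serum. The Vector group is 1 library of cells given the empty lentiviral vector, and the OE-UNC5B group is 1 library of cells given a lentiviral construct for UNC5B, a netrin-1 receptor. The construct was driven by a CMV promoter and carried a FLAG tag, mCherry and puromycin resistance, and transduced cells were selected with puromycin. The study made this comparison to look at adhesion and proliferation genes, and the sterol genes are read here from the same table.

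Cells make cholesterol from acetyl-CoA. The mevalonate arm builds isoprenoid units, which the sterol arm joins into squalene, closes into lanosterol and trims to cholesterol. The SREBP transcription factors, encoded by SREBF1 and SREBF2, are held in the endoplasmic reticulum by SCAP and the INSIG proteins when sterols are plentiful, and are released to switch on these genes when sterols run low. The LXR receptors (NR1H2 and NR1H3) are activated by oxidised sterols and switch on efflux pumps such as ABCA1 and ABCG1.

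The libraries held 13715566 counted reads (Vector) and 15637137 counted reads (labelled OE-UNC5B). UNC5B (chromosome 10, 71212570 to 71302864) had 0 reads in both, so its level was under the floor of 3 reads, which is 0.219 CPM (counts per library size) for Vector and 0.192 CPM for the other library. The overexpression is not visible in these values, and every direction below rests on the label. All 10 markers of the AML line were detected, with 247 to 51742 reads, while 20 markers of endothelial, epithelial, fibroblast, hepatocyte, lymphoid and erythroid cells held 53 reads in Vector and 25 in the OE-UNC5B labelled library, 12 of them with 0 reads in both. Of the AML markers, LYZ and MPO, which are granule genes, were lower by at least 2-fold (log2 differences -1.36 and -1.35), while 6 of the 10 had higher values, MEIS1 and PTPRC past 1.5-fold (0.90 and 0.73). Their part in the sterol results was not tested. Differences are log2 ratios of TMM-scaled reads, OE-UNC5B labelled library minus Vector, with 95% Clopper-Pearson intervals that cover counting error only. Since each group is 1 library, there is no replicate check, no test of the conditions could be made, and an effect of the construct and a difference between 2 cultures cannot be told apart. In bulk RNA, fewer cells that express a gene and less RNA per cell cannot be told apart either.

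Genes of both synthesis arms were lower in the OE-UNC5B labelled library, while the transcripts of the SREBP factors themselves were not. Of the 18 synthesis genes, all with at least 10 reads over both libraries, 17 had a value below 0, against 50.6% of all 15384 genes tested. A decrease of at least 1.5-fold was seen for 14 of these 18, or 77.8%, against 12.5% of all genes tested. The members were chosen with earlier results of these data known, so such shares describe the genes and do not test them. The median log2 difference of the 18 genes was -0.82, and that of all genes tested was -0.0069, with quartiles at -0.33 and 0.32. The other 17 tested members had a median of -0.0022, and 1 of them was lower by 1.5-fold. At 2-fold, 4 of the 35 tested members were lower, against 4.79% of all genes tested, and 1 was higher, against 5.15%. The 4 were HMGCS1, IDI1, CYP51A1 and DHCR7, all of the synthesis arms, and the higher gene was the efflux pump ABCA1. IDI1 lies on the threshold, and it was under 2-fold with library totals (-0.96), DESeq2 size factors (-0.97) and FPKM with 0.1 added (-0.96). With FPKM and 1 added, which shrinks differences of low genes, IDI1 (-0.91), CYP51A1 (-0.90) and DHCR7 (-0.96) were all under 2-fold.

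**Figure D1:**
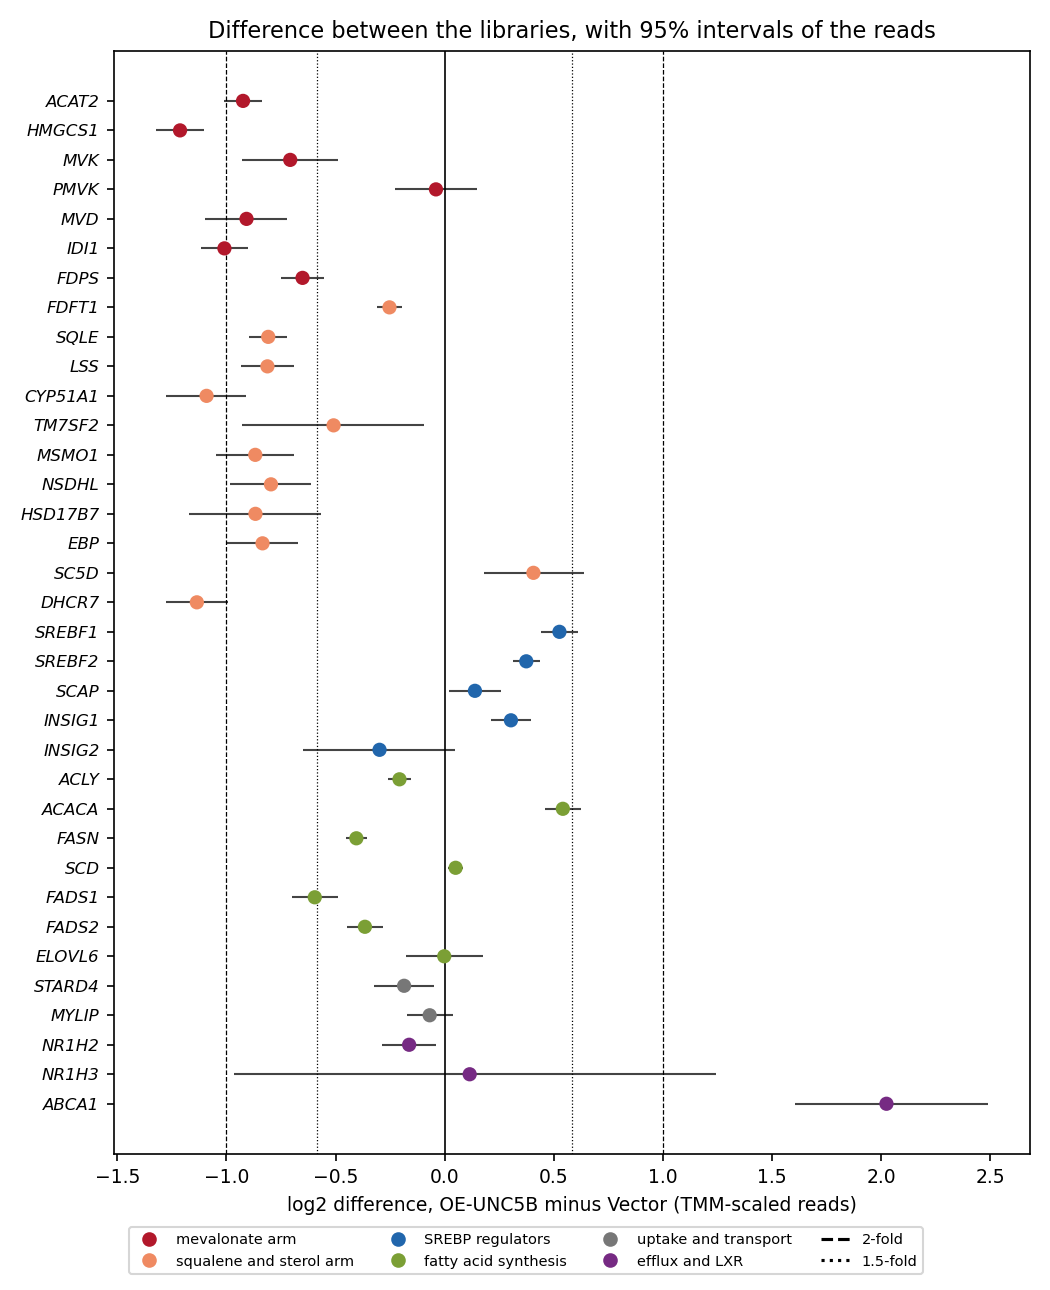
Log2 difference between the OE-UNC5B labelled library and Vector (x axis, TMM-scaled reads) for the 35 tested members, with points coloured by role and bars for the 95% interval of the reads. The synthesis genes lie left of 0 apart from SC5D at 0.41, with the interval of PMVK across 0, and ABCA1 stands alone at 2.02.

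In the mevalonate arm, 7 of 7 genes had lower values in the OE-UNC5B labelled library, PMVK with an interval across 0, against 50.6% of all genes tested. Past 1.5-fold were 6 of them, against 12.5%. HMGCS1, which makes HMG-CoA (chromosome 5, 43289395 to 43313512), gave 1979 reads in Vector and 1006 in the OE-UNC5B labelled library. Its log2 difference was -1.21 (interval -1.32 to -1.10), the lowest of the 35 tested members. IDI1, the isomerase that balances the isoprenoid building blocks (chromosome 10, 1039908 to 1049170), had 1934 reads against 1132. Its log2 difference was -1.01 (interval -1.12 to -0.90), so the interval spans the 2-fold line. ACAT2, the cytosolic thiolase that feeds HMGCS1, had 2686 reads against 1668, a log2 difference of -0.92. ACAT2 overlaps TCP1 and SOD2 on the opposite strand, which had log2 differences of -0.73 and -0.18, and the use of strand in the counting is not stated. Summed with TCP1 the difference was -0.78, and with SOD2 it was -0.70.

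MVD, which decarboxylates the phosphorylated mevalonate, had 607 reads against 381 (log2 difference -0.91). MVK, which adds a phosphate to mevalonate, had 416 reads against 300 (-0.71). FDPS, which makes farnesyl diphosphate, had 2030 reads against 1523 (-0.65). These 3 were lower by a smaller margin than HMGCS1. PMVK, the kinase that acts right after MVK, had 444 reads against 509, and its log2 difference of -0.040 had an interval of -0.23 to 0.15. Its value turned positive with library totals (0.0077), so no direction is given for it. The gap between the log2 differences of PMVK and MVK, which needs no scaling, was 0.67 (interval 0.38 to 0.96).

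In the squalene and sterol arm, 10 of 11 genes had lower values in the OE-UNC5B labelled library, TM7SF2 with an uncertain direction, against 50.6% of all genes tested. Past 1.5-fold were 8, against 12.5%. DHCR7, the reductase of the last step to cholesterol (chromosome 11, 71428193 to 71452868), gave 1162 reads in Vector and 623 in the other library. Its log2 difference was -1.14 (interval -1.28 to -0.99). CYP51A1, which demethylates lanosterol, lies on chromosome 7 from 92112151 to 92142952 and had 691 reads against 382. Its log2 difference was -1.09 (interval -1.28 to -0.91), or -1.07 with the reads of its 3 pseudogenes added.

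Around these, SQLE, which oxidises squalene, had 2622 reads against 1764 (log2 difference -0.81), and LSS, which closes the ring system, had 1386 against 930 (-0.81). The sterol demethylation enzymes MSMO1, NSDHL and HSD17B7 had 643, 594 and 234 reads in Vector and 415, 403 and 151 in the OE-UNC5B labelled library. Their log2 differences were -0.87, -0.80 and -0.87, which lie close together, and HSD17B7 with its pseudogene HSD17B7P2 gave -0.91. The sterol isomerase EBP had 760 reads against 502 (-0.83). FDFT1, which commits farnesyl diphosphate to sterols, differed less, with 5138 reads against 5081 and a log2 difference of -0.25 (interval -0.31 to -0.20). The log2 difference of FDFT1 thus lay 0.56 above that of SQLE, the next enzyme (interval of the gap 0.45 to 0.66).

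The exception in direction was SC5D, the desaturase that acts right before DHCR7. SC5D had 261 reads in Vector and 408 in the OE-UNC5B labelled library, a log2 difference of 0.41 (interval 0.18 to 0.64). This log2 difference lay 1.54 above that of DHCR7 (interval of the gap 1.27 to 1.81). TM7SF2, a sterol reductase, had only 110 reads against 91 (log2 difference -0.51, interval -0.93 to -0.10) and overlaps VPS51 on the same strand, whose 1025 and 1311 reads outnumber its own. With these added the difference turned to 0.068, so the direction of TM7SF2 is uncertain. LBR, a nuclear envelope protein that carries out the same reduction and is not a member, had 1796 reads against 2712 (log2 difference 0.36).

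Summed over genes, the mevalonate arm held 748 CPM in Vector and 410.0 in the OE-UNC5B labelled library, a log2 difference of -0.87 (interval -0.91 to -0.82). The squalene and sterol arm held 1008 against 676 CPM, a log2 difference of -0.58 (interval -0.61 to -0.54), in which FDFT1 carries the most reads. FDFT1 gave 5138 of the 13601 reads of this arm in Vector and 5081 of the 10750 in the OE-UNC5B labelled library. The intervals of these sums do not overlap, but they cover counting error only, and the gap between the sums leans on FDFT1. The median log2 differences were -0.91 for the mevalonate arm and -0.81 for the squalene and sterol arm.

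**Figure D2:**
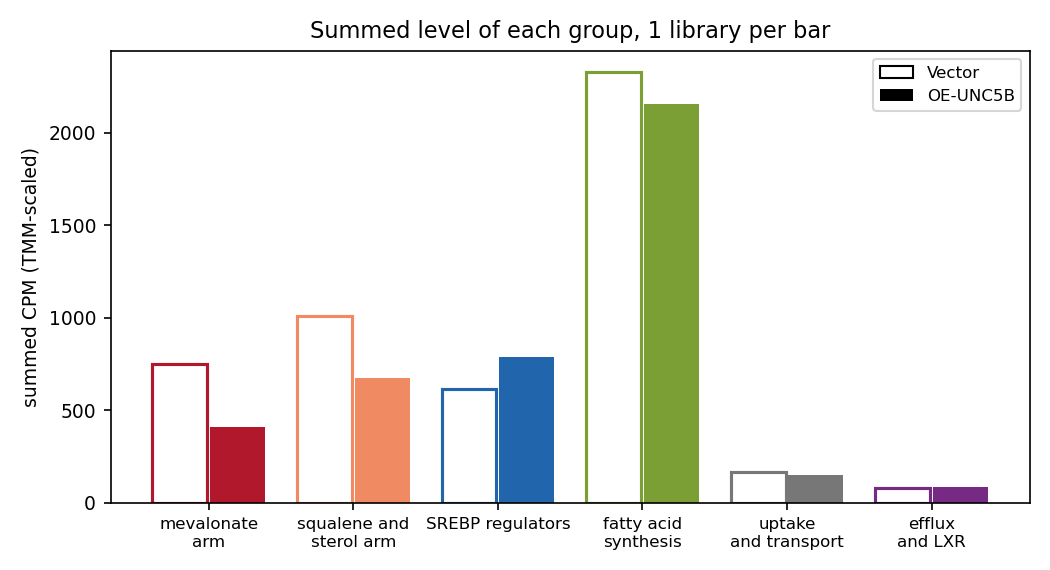
Summed CPM (y axis, TMM-scaled) of the tested genes of each role, with open bars for Vector and filled bars for the OE-UNC5B labelled library, 1 library per bar. The mevalonate bars stand at 748 and 410.0, the regulator bars at 615 and 789, and the fatty acid bars at 2327 and 2156.

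Levels are given as the deposited FPKM, which scale reads by a gene length that is not stated. Places among genes depend on that length. In Vector, 5138 reads of FDFT1 gave 22.2 FPKM, while 444 reads of PMVK gave 25.3. Among the 18 synthesis genes, FPKM in Vector ran from 0.672 for TM7SF2 to 39.4 for ACAT2, with a median of 12.2. In the OE-UNC5B labelled library it ran from 0.487 to 25.4, with a median of 6.64. ACAT2 and SQLE were the synthesis genes of highest level in Vector, with 39.4 and 33.2 FPKM. In the OE-UNC5B labelled library the highest was PMVK, with 25.4 FPKM against 25.3 in Vector. ACAT2 followed at 21.4, SQLE at 19.6 and FDFT1 at 19.3, and the last pair lies close. HMGCS1 moved from 20.9 to 9.31 FPKM and from place 10 to place 15 among the 36 members.

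**Figure D3:**
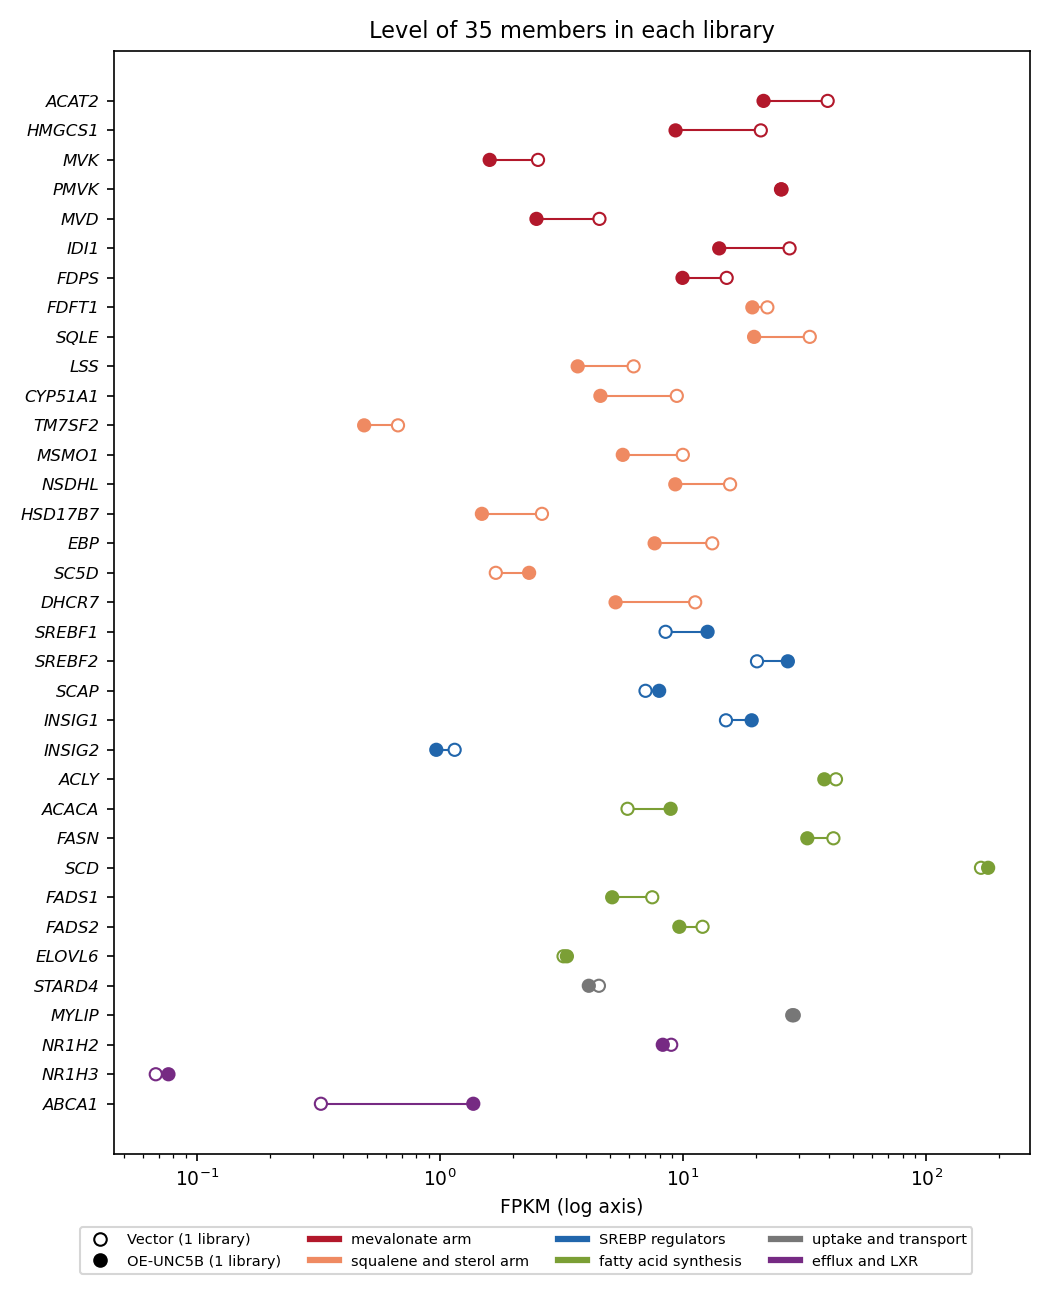
FPKM (log axis) of the 35 tested members, with open circles for Vector and filled circles for the OE-UNC5B labelled library, joined by a line and coloured by role. SCD lies far right at 168 and 180.0 FPKM, and the filled circles of most synthesis genes lie left of the open ones.

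The promoters of the synthesis genes were read because these genes moved together. The windows are RefSeq promoters of GRCh38.p14, from 250 bases before to 50 bases after a transcript start, and 31 of the 36 members have 1 or more. ACAT2, FDFT1, SQLE, FASN and ABCG1 have no entry. A gene was counted as holding a motif if any of its windows had a match. The motifs searched on both strands were TCACNCCAC (core of a sterol regulatory element), CCAAT (bound by NF-Y, a known partner of SREBP; read as ATTGG on the other strand), GGGCGG (a GC box), CACGTG (an E-box) and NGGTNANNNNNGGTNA (a spaced repeat of the kind LXR receptors bind, added after values were seen). CCAAT was held by 13 of the 15 synthesis genes with an entry, against 43.4% of 10009 tested genes and 39.7% of all 27305 genes with one. CYP51A1 and PMVK were those without it, while SC5D, which was higher, held it. Of members outside the synthesis arms with an entry, CCAAT was held by 4 of 6 fatty acid genes and 2 of 2 uptake and transport genes. It was also held by 2 of 5 regulators and 1 of 3 efflux genes. GGGCGG was held by 14 of the 15, against 75.9% of tested genes. TCACNCCAC was held by 0 of the 15 and, of all members, by SREBF2 alone, against 1.38% of tested genes. CACGTG was held by 2 of the 15, against 12.8% of tested genes. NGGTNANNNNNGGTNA was held by ABCA1 and HMGCS1, against 0.689% of tested genes. The HMGCS1 match was not in the window nearest to the start of its gene in the table. A match describes letters and shows no binding.

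The stretches below show these letters upstream of RefSeq transcript starts, 5′ to 3′ on the strand of the gene, with all motif matches except GGGCGG in capitals. HMGCS1, IDI1 and ABCA1 are shown at length as examples of differences past 2-fold. DHCR7 and CYP51A1 were past it too, but CYP51A1, which has no CCAAT, is not shown. SREBF2 is shown for its TCACNCCAC match, and the other genes, DHCR7 included, as examples of CCAAT in both arms. HMGCS1 is chr5:43313513-43313662 on the minus strand, stopping where annotated exon begins. The spaced repeat counted for HMGCS1 lies in another of its windows and is not in this stretch. IDI1 is chr10:1049120-1049369 and ABCA1 is chr9:104928156-104928405, both minus strand. Short sites of 30 bases follow for SREBF2 (chr22:41832961-41832990, plus strand), DHCR7 (chr11:71448425-71448454, minus strand), MVD (chr16:88663160-88663189, minus strand), HSD17B7 (chr1:162790637-162790666, plus strand) and MSMO1 (chr4:165327622-165327651, plus strand). A RefSeq start can lie inside the span that the table gives a gene, and the DHCR7 site and nearly all of the MSMO1 site lie inside theirs. The last bases of the IDI1, ABCA1 and MVD stretches also run into the span of the gene, the spaced repeat of ABCA1 included. Annotated exons of GENCODE 44 cover all 30 bases of the SREBF2 site, 11 of the DHCR7 site and 2 of the MVD site.
HMGCS1: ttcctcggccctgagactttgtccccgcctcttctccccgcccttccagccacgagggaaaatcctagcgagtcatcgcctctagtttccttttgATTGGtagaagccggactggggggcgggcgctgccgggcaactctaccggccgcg
IDI1: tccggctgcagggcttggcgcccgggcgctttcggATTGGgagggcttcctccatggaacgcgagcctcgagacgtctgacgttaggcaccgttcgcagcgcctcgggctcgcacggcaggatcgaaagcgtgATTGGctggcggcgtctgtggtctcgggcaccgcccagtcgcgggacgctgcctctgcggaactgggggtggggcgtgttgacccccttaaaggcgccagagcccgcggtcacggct
ABCA1: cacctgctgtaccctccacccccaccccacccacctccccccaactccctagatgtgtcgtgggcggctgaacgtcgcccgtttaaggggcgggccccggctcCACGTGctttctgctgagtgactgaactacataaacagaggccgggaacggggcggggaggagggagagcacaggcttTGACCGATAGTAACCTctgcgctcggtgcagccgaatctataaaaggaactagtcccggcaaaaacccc
SREBF2: atgacgcgccaTCACCCCACgcaccgcttc
DHCR7: gggtccgcctccgATTGGcaggcaatcgct
MVD: gggctcgcacgggCCAATcctgtggtagcg
HSD17B7: ttggcggactgagATTGGagggatcagctc
MSMO1: gagctctcgcaggCCAATaacgacaggacg

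**Figure D4:**
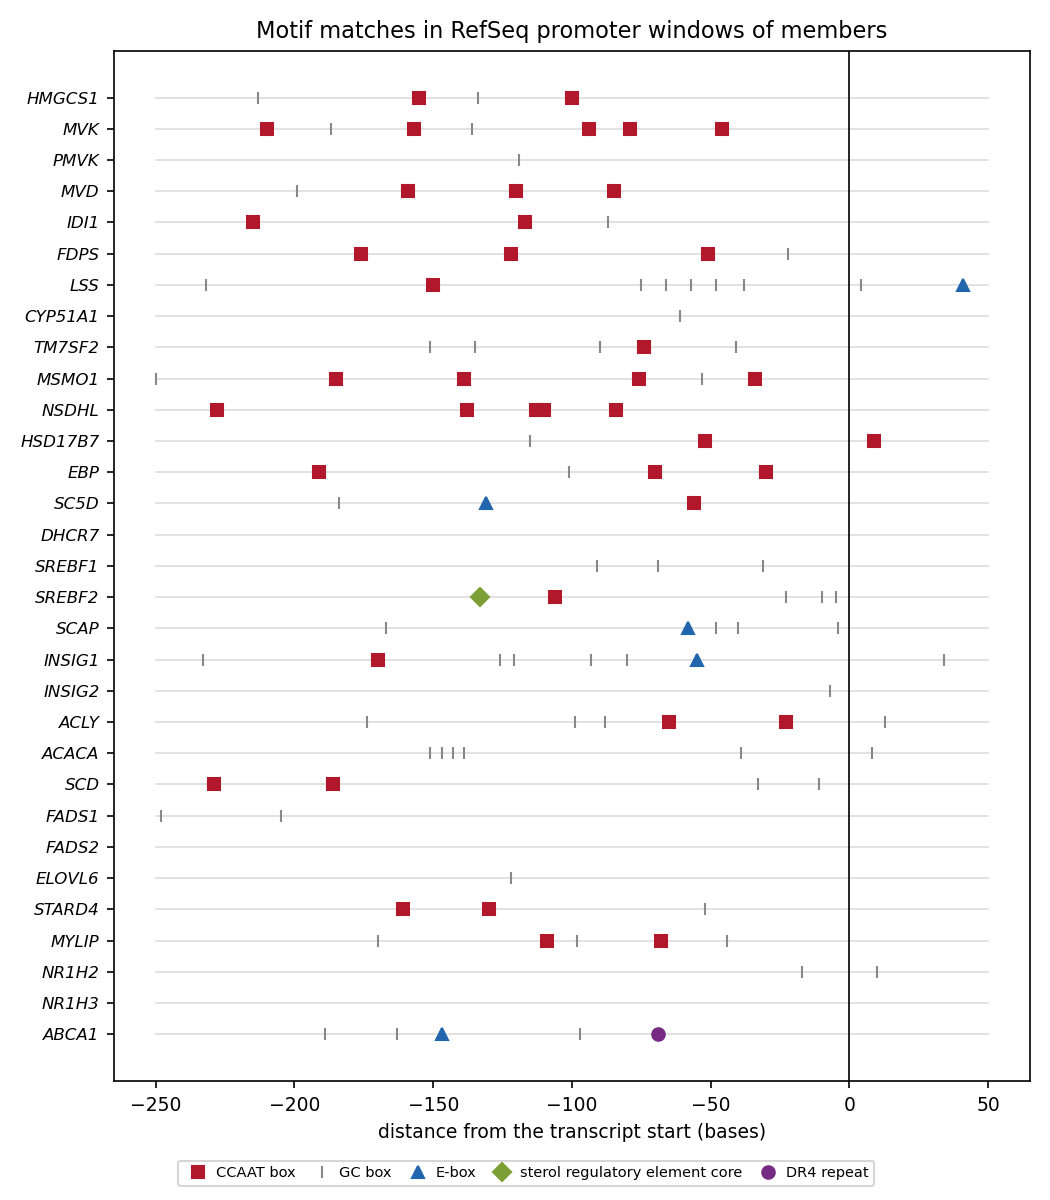
Motif matches (symbols) along 1 RefSeq promoter window for each of the members that have one and were tested, by distance in bases from the transcript start (x axis), where a gene with several windows is shown by the one nearest to the start of its gene in the table. CCAAT matches lie upstream of most synthesis genes, and the spaced repeat of ABCA1 begins 69 bases before the start. Matches in other windows of a gene, such as the CCAAT of DHCR7 and the spaced repeat of HMGCS1, are not shown.

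Among the SREBP regulators, 4 of 5 had higher values in the OE-UNC5B labelled library, all by less than 1.5-fold. Of all genes tested, 50.6% had lower values and 12.9% were higher by at least 1.5-fold. SREBF1, which favours fatty acid genes, had 1825 reads in Vector and 3097 in the other library, a log2 difference of 0.53 (interval 0.44 to 0.61). SREBF1 overlaps RAI1 on the opposite strand, which had 937 and 1111 reads, and with these added the difference was 0.37. SREBF2, which favours cholesterol genes, had 3636 reads against 5553 (log2 difference 0.37, interval 0.31 to 0.43). The log2 difference of SREBF1 lay 0.15 above that of SREBF2 (interval of the gap 0.048 to 0.26), but with the RAI1 reads added it did not exceed it. The escort protein gene SCAP had 1032 reads against 1339 (log2 difference 0.14, interval 0.020 to 0.26).

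INSIG1, itself a known SREBP target that retains SCAP in the endoplasmic reticulum, had 1663 reads in Vector and 2419 in the OE-UNC5B labelled library. Its log2 difference was 0.30 (interval 0.21 to 0.39), so it did not share the direction of the synthesis genes. INSIG2, its paralogue, had 143 reads against 137, a log2 difference of -0.30 with an interval of -0.65 to 0.049. The gap between the log2 differences of INSIG1 and INSIG2 was 0.60 (interval 0.24 to 0.96). The summed reads of the 5 regulators gave a log2 difference of 0.36 (interval 0.32 to 0.40).

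The 7 fatty acid genes were mixed, with a median log2 difference of -0.21. SCD, the stearoyl-CoA desaturase and the member of highest level, had 12369 reads in Vector and 15092 in the OE-UNC5B labelled library, a log2 difference of 0.050 (interval 0.016 to 0.084) that turned to -0.033 with a GC content and length trend subtracted. ACACA, which makes malonyl-CoA, had 1855 reads against 3182 (0.54, interval 0.46 to 0.62). FASN, the synthase that uses malonyl-CoA, had 7158 against 6372 (-0.40, interval -0.45 to -0.36). These enzymes act in sequence but did not share a direction, and the gap between the log2 differences of ACACA and FASN was 0.95 (interval 0.85 to 1.04).

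ACLY, which supplies cytosolic acetyl-CoA to both fatty acids and sterols, had 5319 reads against 5430 (log2 difference -0.21). The elongase gene ELOVL6 had 486 against 572, and its log2 difference of -0.0022 turned to 0.046 with library totals. The desaturase FADS1 had 1677 reads against 1308 (-0.60) and FADS2 had 2533 against 2317 (-0.37). FADS1 was just past 1.5-fold, and was under it with library totals (-0.55), DESeq2 size factors (-0.56) and FPKM with 0.1 added (-0.54). FADS1 and FADS2 overlap on opposite strands, and FADS2 also overlaps FEN1 on its own strand, so their reads may be shared. FADS1 and FADS2 together gave a log2 difference of -0.45. FEN1, a replication gene, had a log2 difference of -1.04.

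Of the uptake and transport genes, STARD4, which carries cholesterol between membranes, had 862 reads in Vector and 893 in the OE-UNC5B labelled library (log2 difference -0.19, interval -0.32 to -0.049). MYLIP, an LXR-induced ubiquitin ligase that removes lipoprotein receptors, had 1367 reads against 1536 (-0.069, interval -0.17 to 0.037). No difference of MYLIP was detectable beyond counting error.

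ABCA1 exports cholesterol to lipid-poor apolipoproteins, and its gene lies on chromosome 9 (104781002 to 104928237). ABCA1 counts were 53 in Vector and 256 in the OE-UNC5B labelled library, a 4.07-fold higher value (log2 difference 2.02, interval 1.60 to 2.49). With FPKM and 1 added, which shrinks differences of low genes, the log2 difference of ABCA1 was 0.84, under 2-fold. Its FPKM was 0.323 in Vector and 1.37 in the other library, so it ranked 34 and 32 among the 36 members even where it was higher. The gap between the log2 differences of ABCA1 and HMGCS1, the highest and the lowest of the tested members, was 3.25 (interval 2.80 to 3.72). ABCG1, a related pump, had 0 reads in both libraries, under the floor of 3 reads, and no fold can be given. NR1H2, the LXR receptor found in most tissues, had 1044 reads against 1099 (log2 difference -0.16). Its reads may be shared with overlapping genes, and no direction is given for it. NR1H3 had 14 reads against 18, and its interval of -0.96 to 1.24 leaves a difference of 1.5-fold either way undetectable at this depth.

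**Figure D5:**
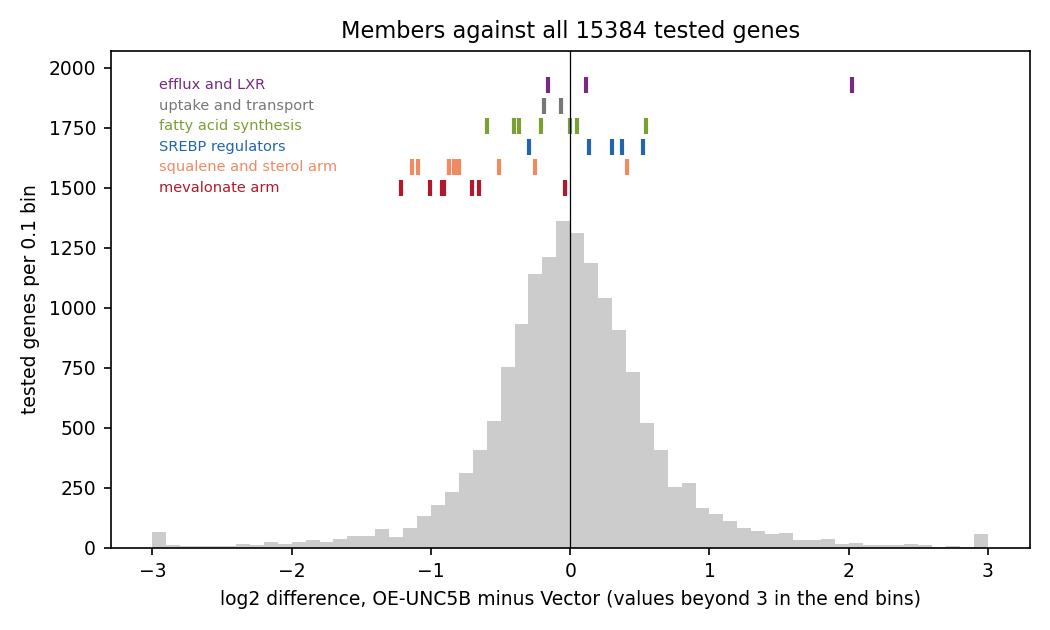
Histogram of the log2 differences of all 15384 tested genes in bins of 0.1 (y axis, genes per bin), with each tested member as a tick above, in a row for its role. The synthesis ticks lie mostly left of the peak, and the ticks of the regulators and fatty acid genes fall around it.

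Over all 35 tested members, 22 had a read interval wholly below 0, against 26.3% of all genes tested, and 8 had one wholly above 0, against 25.1%. Intervals narrow with more reads, and these shares are not matched for depth. The median of all genes tested was 269.5 reads in Vector, and most members had more. Of the 22, 16 were synthesis genes, with TM7SF2 among them. Thus of the 18 synthesis genes only PMVK, whose interval crossed 0, and SC5D, whose interval lay above it, were outside that count. The reads of 8 members overlap another gene with at least 10% as many reads, namely ACAT2, MVK, TM7SF2, SREBF1, FADS1, FADS2, NR1H2 and NR1H3. Of the 14 synthesis genes lower by 1.5-fold, ACAT2 and MVK are in that set. MVK overlaps MMAB on the opposite strand, and with its reads added the log2 difference was -0.578, which falls just short of 1.5-fold.

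Other genes of the pathway were read from lists that are not members. Of 5 tested enzymes and helpers of the sterol arm, 2 were lower by 1.5-fold, against 12.5% of all genes tested, and 0 higher, against 12.9%. These were ERG28, the scaffold of the sterol demethylation enzymes, with 429 reads against 283 (log2 difference -0.84, interval -1.06 to -0.62), and CYB5R3, an electron donor for desaturases, with 791 against 581 (-0.68). The list had a median of -0.37.

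Of 12 genes for SREBP processing and partners, 3 were higher by 1.5-fold, against 12.9% of all genes tested, and 0 were lower, against 12.5%, with a median of 0.15. MBTPS2, the protease that makes the final cut of SREBP, had 153 reads against 301 (log2 difference 0.74). RNF145, a sterol-responsive ubiquitin ligase, had 378 against 796 (0.84), and SP1, a partner at SREBP promoters, had 1642 against 3018 (0.64). Of 10 other SREBP targets, none was higher by 1.5-fold, and 1 was lower, SCD5, at 11 reads against 4 with an interval of -3.80 to 0.058. That list had a median of -0.18.

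Of 11 genes of uptake, lysosome and sterol esters, 2 were higher by 2-fold, against 5.15% of all genes tested, and 0 lower, against 4.79%, with a median of -0.13. One of these was VLDLR, a receptor of triglyceride-rich lipoproteins, with 658 reads in Vector and 1876 in the OE-UNC5B labelled library. Its log2 difference was 1.27 (interval 1.15 to 1.40). Within 1.5-fold lay 9 genes of that list.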

How the data were processed

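RNA-seq was performed on 2 libraries, 1 per group. The methods name the VAHTS Universal V6 library kit, an Illumina platform and the genome GRCh38. The submitters' processing notes name bcl2fastq 2.19, HISAT2 2.0.4 and StringTie 1.3.0. The annotation release and the use of strand are not given in the sources used here. Raw, unnormalised counts of reads per gene were deposited by the authors. FPKM values were deposited as well, and between libraries their ratio to the counts follows the ratio of the count totals (1.14), so they are scaled to reads on genes.

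TMM scaling was done in edgeR 4.0.16 under R 4.3.3 (factors 0.984 for Vector and 1.02 for the other library). A gene with 10 or more reads in both libraries together is called tested, and 0.5 reads were added for log2 differences. A gene was counted past a difference of 2-fold or 1.5-fold. No test of the conditions, edgeR's quasi-likelihood test included, could be fitted with 1 library a group, and no p-values are given. Intervals of a gene's reads are 95% Clopper-Pearson (scipy 1.17.1), and those of ratios between 2 genes are exact conditional intervals. The 7 pairs of genes were chosen after values were seen, and their intervals are not adjusted for this number. The procedure was run on simulated counts that held counting error only, which cannot show how much cultures vary. Exons, lengths and GC content came from GENCODE 44, and promoters from RefSeq (GRCh38.p14), matched by symbol.

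The members and lists were chosen with earlier results of these data known. The rule named all 36 members, UNC5B, the markers, and genes of the other lists past 2-fold with at least 10 CPM, apart from a gene that is not reported here. The other list genes named outside it are those past 1.5-fold or overlapping a member, and LBR, ABCA7 and LPCAT3, which were chosen after their values were seen.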

Additional observations from a re-analysis of the deposited data

How the results depend on the processing

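No paired analysis was possible because each group is a single library, and no library could be left out either. Of 275 values of single members under the alternatives, 266 kept their sign, and those that did not belonged to PMVK, ELOVL6 and SCD. The settings tried were the totals of the libraries, DESeq2 1.42.0 size factors, deposited FPKM of at least 1 (0.1 or 1 added), a prior of 2 reads, no filter, a minimum of 50 reads, and a GC content and length trend subtracted, the last chosen after seeing the data. Under each, 16 of the 18 synthesis genes had lower values wherever they were kept, and 11 to 14 were lower by 1.5-fold, against 4.85% to 12.2% of all genes tested. The lowest count and share are those with FPKM and 1 added. Without a filter the median of all genes was -0.24, since genes at 0 in both libraries sit there by construction.

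With library totals the summed log2 difference was -0.82 for the mevalonate arm, -0.53 for the squalene and sterol arm, 0.41 for the regulators and -0.063 for the fatty acid genes, the last being -0.075 with DESeq2 size factors. With FPKM and 1 added, which shrinks differences of low genes by construction, the mevalonate median was -0.66 (-0.91 with the main settings), and 0 members were higher and 1 was lower by 2-fold, against 1.43% and 1.12% of all genes. With TMM-scaled reads and a 1.5-fold threshold, 15 members were lower and 1 was higher, against 12.5% and 12.9%. The mevalonate median was -0.73 with the trend subtracted. With library totals, DESeq2 size factors or FPKM with 0.1 added, 3 members were lower by 2-fold, without IDI1, against 4.32%, 4.37% and 2.43% of all genes, and FADS1 fell short of 1.5-fold. The efflux median, 0.11 with the main settings, was 0.84 with FPKM and 0.1 added and 0.93 with at least 50 reads, from fewer genes tested, and -0.024 with no filter. The median of the other SREBP targets was 0.012 with either FPKM setting, also from fewer genes. Depth limits NR1H3, ABCG1, INSIG2 and TM7SF2.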

Other observations

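The branch of the mevalonate pathway that leads away from sterols, to prenyl groups, dolichol and ubiquinone, was read from a list of 11 genes. None was higher or lower by 1.5-fold, against 12.9% and 12.5% of all genes tested, the values ran from -0.32 to 0.32 and the median log2 difference was -0.14. A list of 6 genes for oxysterols and other LXR targets had 4 tested genes, with a median of -0.19 and 0 past 1.5-fold in either direction. ABCA7, a relative of ABCA1, had 774 reads in Vector and 1368 in the OE-UNC5B labelled library, a log2 difference of 0.58 that lies just under 1.5-fold. LPCAT3, a known LXR target, had 878 reads against 815 (log2 difference -0.34). Both were named after their values were seen.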
